A study of Homo sapiens with 11 samples.

Results

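CDT2 peaks of U2OS cells that carried the heterochromatin mark H3K9me3 but no called CUL4A are described here. They are the ChIP-Seq peaks of CDT2 on chromosomes 1 to 22 that shared at least 1 bp with an H3K9me3 peak and no base with a CUL4A region, and 3462 of the 27704 CDT2 peaks on these chromosomes met this rule (28516 on all chromosomes). The remaining CDT2 peaks fell into 3 classes: 8570 met both H3K9me3 and CUL4A, 7674 met CUL4A without H3K9me3, and 7998 met neither. The peaks were therefore chosen on the values of 3 lists, and what those lists say about them is a description without a test.

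The study asked how cullin-RING ubiquitin ligases (CRLs) meet replication origins, and the data used here are 8 lists of enriched regions, each called by the authors from 1 sample. Chromatin of unsynchronized, untreated wild-type U2OS cells, a human osteosarcoma line, gave the CUL4A, H3K4me3 and H3K9me3 lists, and short nascent DNA strands of U2OS cells gave the origins. For CDT2 the design text names a stable U2OS line that overexpresses full-length RepID with a FLAG tag, the sample label names only U2OS, and the paper names wild-type cells. Whether the lack of CUL4A at a CDT2 peak belongs to the site or to a difference between these cells cannot be told apart. HCT116, a human colon carcinoma line, gave SKP2 ChIP-Seq lists for wild-type (WT) cells and for cells whose RepID gene was disrupted (RepID KO), and nascent strands of a RepID KO clone. The other 3 samples are inputs, for which no list was analysed here. Sequencing depth is unknown, since the lists give no library totals. With 1 sample per list, no spread between replicates could be measured. The 95% intervals given below (Wilson for a share, Newcombe for a difference of shares) hold counting error alone, with each peak taken as independent of its neighbours, and peaks are not replicates of a condition.

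CDT2 (also called DTL) is a substrate receptor of the CRL4 ligase, whose scaffold is CUL4A or CUL4B. It marks the licensing factor CDT1, the kinase inhibitor p21 and the histone methyltransferase SET8 for destruction when they are bound to PCNA on chromatin, which keeps DNA from being replicated more than once per cycle. SKP2 is a substrate receptor of SCF, the CUL1 ligase that also acts on CDT1. H3K9me3 is written by SUV39H1, SUV39H2 and SETDB1, is read by HP1 proteins, and is typical of heterochromatin that replicates late, whereas H3K4me3 is typical of active promoters and early replication.

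The CUL4A-free H3K9me3 peaks were weak and narrow within the CDT2 list. Their score, a value of the authors whose scale is not stated, ran from 20 to 595.21 with a median of 25.47. CDT2 peaks with both H3K9me3 and CUL4A had a median score of 33.41 and reached 2007.39. A score of at least 50 was found in 252 of the CUL4A-free H3K9me3 peaks (7.28%), against 15.0% of all CDT2 peaks on chromosomes 1 to 22, 26.9% of those with both marks and 7.10% of those with neither. By score, the CUL4A-free H3K9me3 peaks therefore lay next to the peaks with neither mark. Their median width was 525 bp (624 bp with both marks and 491 bp with neither), and 1 peak reached 12396 bp.

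H3K9me3 lay centrally in these peaks. All but 3 of the 3462 met exactly 1 H3K9me3 peak, and at the median the 2 centres were 71 bp apart. The mark covered a median of 62.4% of the CDT2 peak, and at least 50% in 2387 of them (68.9%), close to the 69.8% of peaks that also met CUL4A. The H3K9me3 peaks they met had a median fold enrichment over control of 4.35 (range 1.59 to 15.9) and a median −log10 q of 3.08. This −log10 q ran from 1.04 to 37.3. It was at least 2, a false discovery rate of 0.01, for 2669 of the 3462 peaks. With CUL4A present, the median fold was 4.49 and the highest 38.3. In all, 3429 H3K9me3 peaks, 6.10% of those on chromosomes 1 to 22, touched a CUL4A-free CDT2 peak. The H3K9me3 peaks met had a median width of 345 bp (widest 3675 bp), against 322 bp over the whole H3K9me3 list. The mark covered a median of 1.49% of the surrounding 100 kb, against 1.99% for peaks with both marks and 0.891% for peaks with neither. Whether the sites lie in broad heterochromatin was not tested.

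CUL4A regions lay about as far from these peaks as from peaks with neither mark. The gap to the nearest CUL4A region had a median of 18212.5 bp and ran from 23 to 1154772 bp. At peaks with neither mark its median was 16775.5 bp. CUL4A covered a median of 2.6% of the surrounding 100 kb. This was 2.8% for peaks with neither mark, 13% for peaks with both and 7.6% for all CDT2 peaks. A CUL4A region lay within 1 kb of 97 peaks (2.80%), and 1173 peaks (33.9%) had one within 10000 bp. The rule's threshold thus cut through few closely spaced pairs. Just inside it were chr7:71500024-71500394 with a score of 27.59 and a gap of 23 bp, chr21:19389228-19389808 with 20.18 and 27 bp, and chr10:117925073-117925371 with 20.94 and 29 bp. Just outside was chr10:38057110-38057593, of whose 484 bp 91 lay in CUL4A at a score of 23.49. Counted in bases, chr19:27789609-27789731 with a score of 105.27 also had a small overlap. Its whole 123 bp lay in CUL4A, so it was not a borderline case. For H3K9me3, the least covered peaks were chr5:32785946-32786544 with 1 bp and chr20:46091371-46091677 with 5 bp, while chr4:97023418-97024022 missed an H3K9me3 peak by 4 bp and was left out. CUL4A regions were called by SICER at a stringent false discovery rate of 1e-05, so a missing region does not show that no CUL4A was bound.

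Origins of the same cell line met these peaks more often than peaks with neither mark and less often than peaks with both. A U2OS origin shared at least 1 bp with 1839 CUL4A-free H3K9me3 peaks, a share of 53.1% (51.5 to 54.8%), against 62.9% of all CDT2 peaks on chromosomes 1 to 22. It was 31.9% (30.3 to 33.4%) with the stronger 50% of the origin list. Peaks with neither mark met an origin in 43.6% of cases (42.5 to 44.7%), and peaks with both in 77.3% (76.4 to 78.2%). The CUL4A-free H3K9me3 share was 9.53 percentage points above that of peaks with neither (interval of the difference 7.54 to 11.5), and higher on 20 of 22 chromosomes. It fell short of the share with both marks by 24.2 points (difference −26.1 to −22.3), with the lower value on 21 of 22 chromosomes. Among CDT2 peaks without CUL4A, those with H3K9me3 thus met U2OS origins more often than those without it, beyond counting error.

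For origins of HCT116 RepID KO cells the order of the CUL4A-free classes was the opposite, and both stayed below the classes with CUL4A. An origin of these cells met 626 CUL4A-free H3K9me3 peaks, a share of 18.1% (16.8 to 19.4%), which was the lowest of the 4 classes, against 44.2% of all CDT2 peaks on chromosomes 1 to 22. It was 10.4% with the stronger 50% of the origin list and 50.4% for CDT2 scores of 50 and above. The share was 23.8% (22.8 to 24.7%) for peaks with neither mark, 58.2% for peaks with both and 61.9% for peaks with CUL4A alone. The difference from peaks with neither was −5.69 points (−7.25 to −4.08), with the lower value on 19 of 22 chromosomes. The difference from peaks with both marks was −40.1 points (−41.7 to −38.4), with the lower value on all 22. H3K9me3 of HCT116 cells was not analysed here, so the mark is that of U2OS, and cell line and RepID status differ together between the lists of origins and cannot be told apart.

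**Figure D1:**
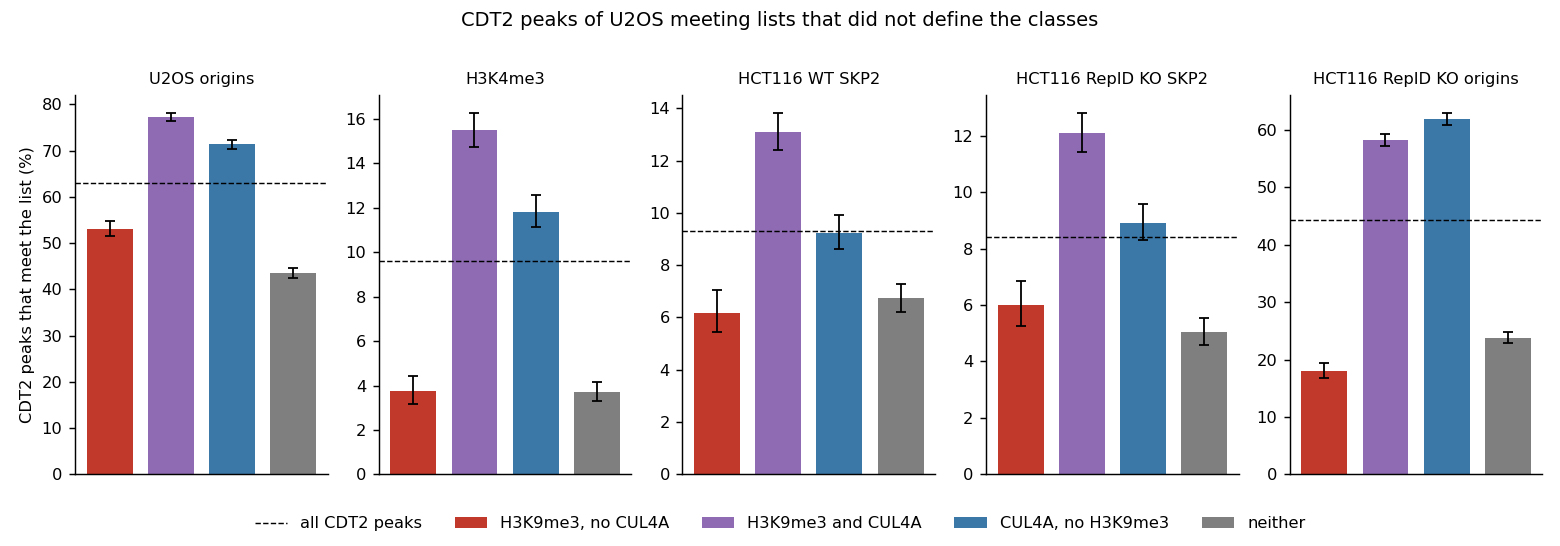
Percentage of CDT2 peaks that share at least 1 bp with each of 5 lists that the rule did not use, for the 4 classes of CDT2 peaks (bars, from 0, with a separate scale in each panel; error bars are Wilson 95% intervals; dashed line, all CDT2 peaks of chromosomes 1 to 22). The CUL4A-free H3K9me3 peaks stand above peaks with neither mark for U2OS origins (53.1 against 43.6%) and below them for HCT116 RepID KO origins (18.1 against 23.8%).

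Both differences from peaks with neither mark kept their direction in each of 4 width classes cut at the quartiles of all CDT2 peaks. In the narrowest class (75 to 424 bp), U2OS origins met 40.2% of CUL4A-free H3K9me3 peaks and 32.2% of peaks with neither mark. In the widest (751 to 12652 bp) they met 66.6 and 53.7%. For HCT116 RepID KO origins the shares were 10.6 and 14.4% in the narrowest class and 33.4 and 47.5% in the widest.

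The surroundings of the peaks differed between the origin lists. Coverage was averaged over the peaks of a class up to 10 kb on either side of the centre. In the outermost 1 kb on each side, U2OS origins covered 20.10% at CUL4A-free H3K9me3 peaks and 19.96% at peaks with neither mark, whereas in the central 1 kb they covered 46.2 and 37.5%. The classes thus differed in U2OS origins at the peak and hardly in its flanks. For HCT116 RepID KO origins the flanks already differed, at 12.04% against 15.4%, and the central values were 15.1 and 20.2%. Centre over flank was 2.30 for U2OS origins at CUL4A-free H3K9me3 peaks, the highest of the 4 classes (1.88 to 2.09 in the others), and 1.26 for HCT116 RepID KO origins, the lowest (1.31 to 1.76 in the others). Over the surrounding 100 kb, the median coverage by U2OS origins was 15.6% around CUL4A-free H3K9me3 peaks, 15.2% around peaks with neither mark and 29.8% around peaks with both.

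**Figure D2:**
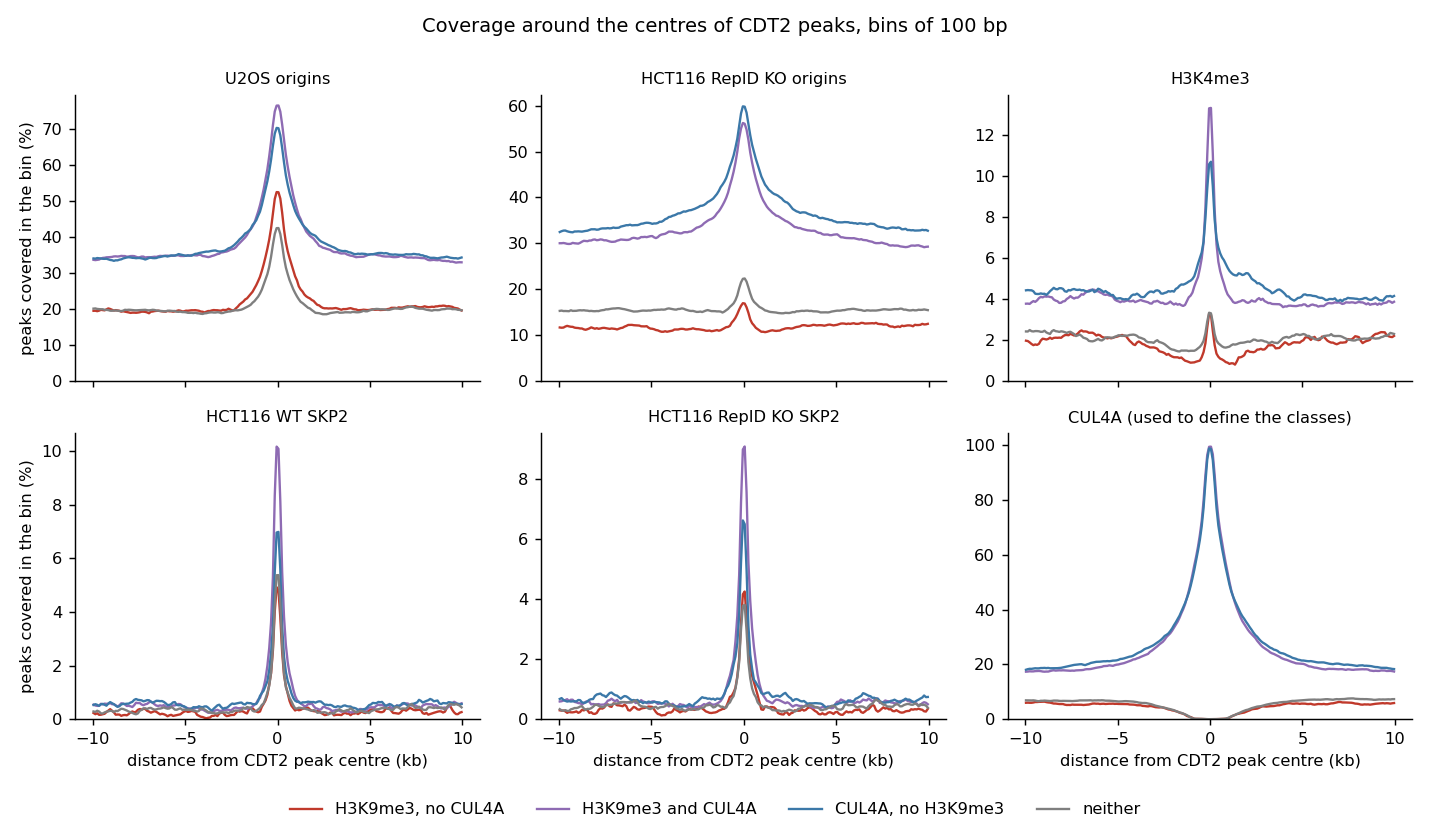
Percentage of peaks covered by each list (y axes, separate scales) in bins of 100 bp up to 10 kb on either side of the CDT2 peak centre (x axes) for the 4 classes; CUL4A is shown although it defined them. For U2OS origins the curves of both CUL4A-free classes run together in the flanks near 20% and part at the centre, where the highest bin is 52.5% with H3K9me3 and 42.5% with neither mark.

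Most of the peaks at U2OS origins did not themselves meet an origin of HCT116 RepID KO cells. Origins of both were met by 451 peaks, 13.0% against 34.4% of all CDT2 peaks. Of the 1839 CUL4A-free H3K9me3 peaks at U2OS origins, these were 24.5% (22.6 to 26.5%), which also met a HCT116 RepID KO origin, compared with 30.4% (28.9 to 32.0%) for peaks with neither mark and 64.5% for peaks with both. Counted over all 3462 peaks, 1388 met an origin of U2OS but not of HCT116 RepID KO cells, a share of 40.1% (38.5 to 41.7%) against 28.5% of all CDT2 peaks. This was the highest share of the 4 classes, 9.77 points above peaks with neither mark (7.86 to 11.7) and 12.7 points above peaks with both (10.8 to 14.6), and higher than each of them on 21 of 22 chromosomes. The reverse pattern, an origin of HCT116 RepID KO cells alone, was found at 175 peaks, 5.05% against 9.84% of all CDT2 peaks. Origins were larger in number in the U2OS list (126050 against 83872 on chromosomes 1 to 22), and U2OS origins were the more frequent ones in every class.

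The U2OS origins met by these peaks had a median width of 2600 bp, the same as at peaks with neither mark, against 3400 bp at peaks with both marks and 2400 bp over the whole U2OS list. The CDT2 peak lay wholly inside the origin in 1294 of 1839 cases (70.4%), and in 69.4 to 75.2% in the other classes. Where no U2OS origin was met, the nearest lay a median of 7953 bp away.

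**Figure D3:**
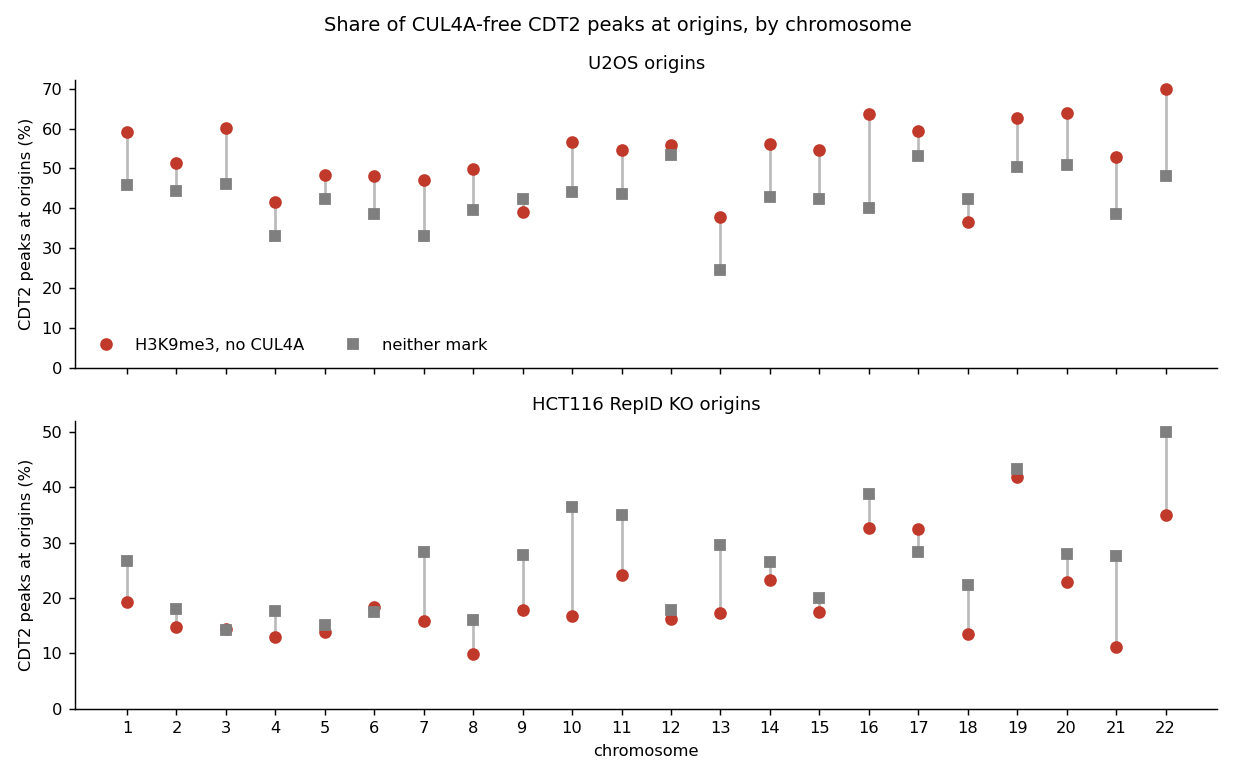
Percentage of CDT2 peaks at origins on each of chromosomes 1 to 22 (x axis) for CUL4A-free peaks with H3K9me3 (circles) and with neither mark (squares); grey lines join the values of 1 chromosome. Circles lie above squares on 20 chromosomes for U2OS origins and below them on 19 for HCT116 RepID KO origins.

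H3K4me3 was rare at these peaks. An H3K4me3 peak met 130 of them, 3.76% (3.17 to 4.44%), against 9.61% of all CDT2 peaks on chromosomes 1 to 22 and 15.5% (14.7 to 16.3%) of those with both H3K9me3 and CUL4A. The share was 3.71% for peaks with neither mark, and the difference of 0.0416 points has an interval of −0.688 to 0.832. With the stronger 50% of the H3K4me3 list it was −0.577 points (−1.05 to −0.0482), an interval without 0, and the share itself was 1.39%. For CDT2 scores of 50 and above the share was 6.75%. Coverage by H3K4me3 formed a narrow peak at the centre, where the highest bin of 100 bp reached 3.30%, inside a wider dip with a lowest bin of 0.808%. Averaged over 1 kb it was therefore 2.03% at the centre, close to the 2.08% of the outermost 1 kb on each side, while these values were 9.07 and 3.86% at peaks with both marks. In 128 of the 130 cases the H3K9me3 peak itself overlapped an H3K4me3 peak. The H3K4me3 regions there had a median width of 513.5 bp. It was 645 bp at peaks with both H3K9me3 and CUL4A, 2310 bp at peaks with neither mark and 1172 bp over all CDT2 peaks, so the narrower regions were found in both classes with H3K9me3. U2OS origins met 88 of these 130 peaks (67.7%, 59.2 to 75.1%), compared with 52.6% (50.9 to 54.2%) of the CUL4A-free H3K9me3 peaks without H3K4me3. The shares with and without H3K4me3 were 64.3 and 42.8% for peaks with neither mark and 88.3 and 75.3% for peaks with both.

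SKP2 of HCT116 cells shared a small part of the sites. In WT cells, SKP2 peaks met 214 CUL4A-free H3K9me3 peaks, 6.18% (5.43 to 7.03%), against 9.32% of all CDT2 peaks on chromosomes 1 to 22. In RepID KO cells they met 208, 6.01% (5.26 to 6.85%), against 8.42% of all. Both shares were less than those of peaks with H3K9me3 and CUL4A (13.1 and 12.1%), on all 22 chromosomes. With CDT2 peaks limited to scores of 50 and above, the differences were 4.58 points in WT cells, with the opposite sign, and −3.67 points in RepID KO cells, and both intervals included 0. The shares of CUL4A-free H3K9me3 peaks themselves were then 33.7 and 20.2%, and they were 3.23 and 2.97% where at least 50% of the peak had to be covered. Against peaks with neither mark the difference was −0.545 points in WT cells (−1.49 to 0.457), an interval that includes 0, and 0.969 points in RepID KO cells (0.0723 to 1.93). The second interval included 0 under 6 of 7 other ways of counting, in 1 of which the difference was −0.00142 points. Only 48 peaks met SKP2 in both genotypes (1.39%, against 2.43% of all CDT2 peaks), and 374 met it in at least 1 (10.8%, against 15.3%). SKP2 coverage was concentrated on the peaks in every class. At CUL4A-free H3K9me3 peaks it was 2.85% in the central 1 kb and 0.274% in the outermost 1 kb on each side in WT cells, and 2.51 and 0.285% in RepID KO cells. Centre over flank in WT cells was 10.4 there, 11.1 at peaks with both marks, 7.07 at peaks with CUL4A alone and 7.91 at peaks with neither. With 1 library per genotype, WT and RepID KO cells have no replicate check.

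The shares varied with the strength of the CDT2 peak. In 5 groups of equal rank range of the score over all CDT2 peaks, SKP2 of either genotype met 5.87% of CUL4A-free H3K9me3 peaks in the lowest group and 32.4% (28.0 to 37.2%) in the highest, where peaks with neither mark reached 32.6%. U2OS origins met 41.7% of them in the lowest and 61.8% (56.9 to 66.4%) in the highest group, whereas for peaks with neither mark the shares were 37.3 and 42.2%. HCT116 RepID KO origins met 12.2 and 39.7% (35.0 to 44.6%) of them, and 16.1 and 59.0% of peaks with neither mark. CUL4A-free H3K9me3 peaks had the higher share at U2OS origins and the lower share at HCT116 RepID KO origins in each of the 5 groups. Among the 374 peaks with SKP2, 142 (38.0%, 33.2 to 43.0%) met a HCT116 RepID KO origin, against 15.7% (14.4 to 17.0%) of those without SKP2, while U2OS origins met 54.8 and 52.9%. HCT116 RepID KO origins were also met more often with SKP2 than without it in the other classes, at 48.7 and 20.9% of peaks with neither mark, 71.4 and 54.6% of those with both and 74.7 and 59.4% of those with CUL4A alone.

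**Figure D4:**
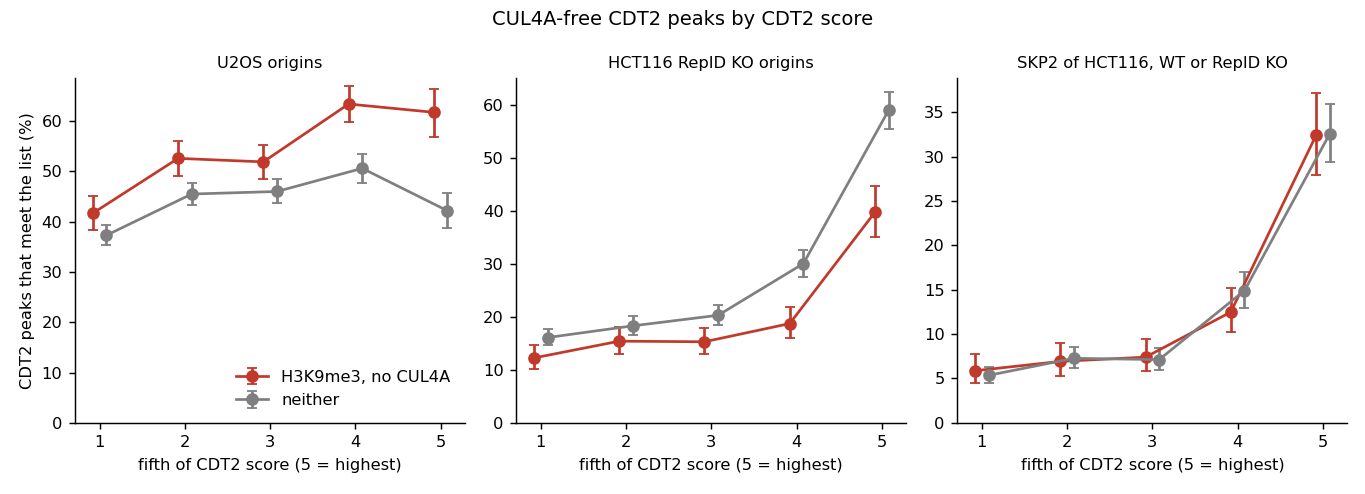
Percentage of CUL4A-free CDT2 peaks with H3K9me3 (red) and with neither mark (grey) that meet U2OS origins, HCT116 RepID KO origins and SKP2 of either HCT116 genotype (y axes, from 0), in 5 groups of the CDT2 score (x axis, 5 is the highest; error bars are Wilson 95% intervals). For U2OS origins the classes part most in the highest group (61.8 against 42.2%), while for SKP2 they lie together there (32.4 against 32.6%).

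By combination, 1299 CUL4A-free H3K9me3 peaks (37.5%, 35.9 to 39.1%) met no region of the 5 other lists, against 24.1% of all CDT2 peaks and 42.0% of those with neither mark. A further 1229 (35.5%) met a U2OS origin and nothing else. Origins of both cell lines without SKP2 or H3K4me3 were met by 327 (9.45%), where this was the case for 22.3% of all CDT2 peaks. Both SKP2 lists and both origin lists were met by 20 peaks, 0.578% against 1.21% of all CDT2 peaks.

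**Figure D5:**
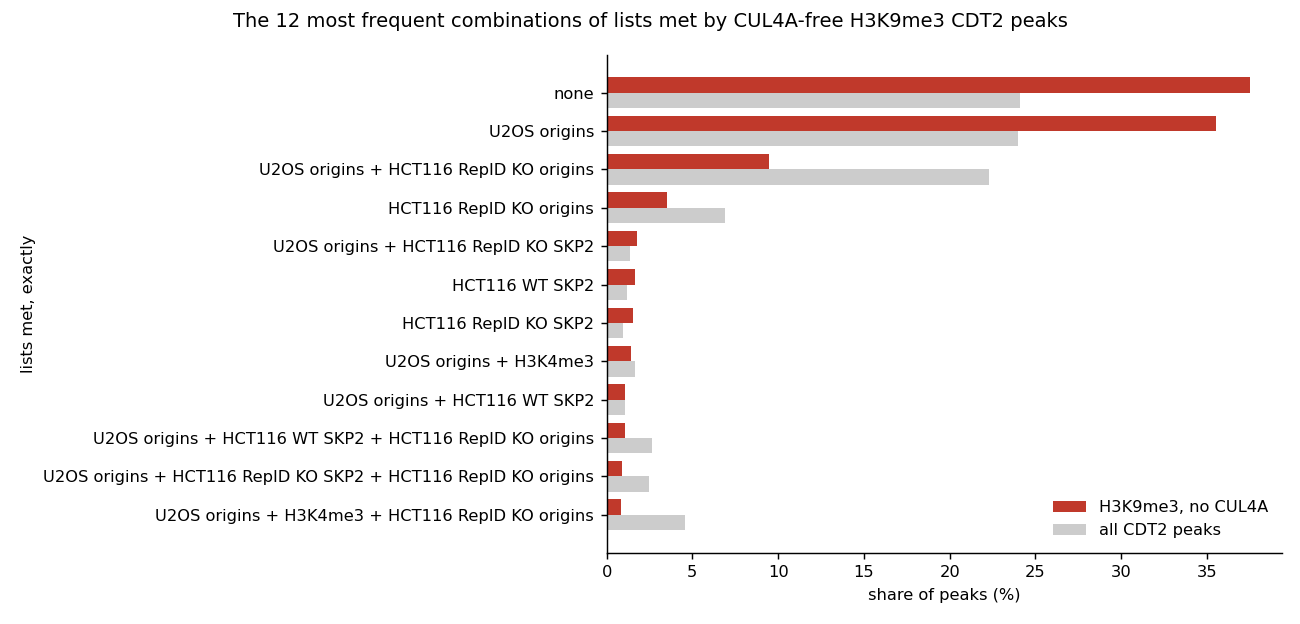
Percentage of CUL4A-free H3K9me3 peaks (red) and of all CDT2 peaks of chromosomes 1 to 22 (grey) that meet exactly the named lists (y axis), for the 12 most frequent combinations. Most of the CUL4A-free H3K9me3 peaks met no other list (37.5%) or a U2OS origin alone (35.5%).

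Individual sites are given in hg19, the build named in the submitters' processing notes, counted from 1. No gene or sequence is given for them, since no annotation or genome of that build was used here. The strongest CUL4A-free H3K9me3 peak, chr6:169114603-169116373, had a CDT2 score of 595.21. Of its 1771 bp, 1136 lay in an H3K9me3 peak with a fold enrichment of 4.04, 765 in a SKP2 peak of WT cells and 259 in one of RepID KO cells. It lay wholly in a HCT116 RepID KO origin, with the nearest U2OS origin 4202 bp away and the nearest CUL4A region 11002 bp away.

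The next, chr10:42354935-42367330, was the widest with 12396 bp and a score of 562.78. Only 1053 bp of it lay in H3K9me3, at a fold of 1.94 and a −log10 q of 1.92. It met 4 SKP2 peaks of WT cells and 1 of RepID KO cells. Its centre lay 6332 bp beyond a stretch of 3199800 bp without a region in any of the 8 lists, the longest on chromosome 10. The HCT116 RepID KO origin that covered it had a score of 136557, the highest of any met by these peaks.

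The peak at chr16:85596929-85599158 followed with a score of 459.26, wholly inside an origin of each cell line and without SKP2, where H3K9me3 had a fold of 6.50 over 257 bp. At chr1:229355721-229356651 the score was 367.17, a U2OS origin covered 600 of 931 bp and a SKP2 peak of WT cells 269 bp. Its H3K9me3 peak had a −log10 q of 1.51. The peak at chr11:2449517-2451406, with 346.46, met SKP2 in both genotypes (scores of 3664 in WT and 2962 in RepID KO cells) and origins of both cell lines, and its H3K9me3 peak had a −log10 q of 31.9.

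Below these, chr5:1929053-1930689 scored 302.93 with a CUL4A region 852 bp away and 1149 of its 1637 bp in SKP2 of WT cells and 496 in SKP2 of RepID KO cells. Scores of 272.72, 272, 256.08 and 244.51 were found at chr2:91604244-91610023, chr17:75805794-75806487, chr2:235987465-235988152 and chr17:72072121-72073067. Of these 10, the strongest outside chromosome 8, 7 met a SKP2 peak of at least 1 genotype and 7 a HCT116 RepID KO origin. A U2OS origin was met by 5 of them, and H3K4me3 by none. In this order, the shares over all CUL4A-free H3K9me3 peaks were 10.8, 18.1, 53.1 and 3.76%. Over all analysed CDT2 peaks they were 15.3, 44.2, 62.9 and 9.61%. With 10 peaks chosen by score, the counts are a description without a test.

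Of the 20 peaks in all 4 of the SKP2 and origin lists, the highest scores were those of chr11:2449517-2451406 and chr17:72072121-72073067 above, followed by chr16:48077651-48078530 with 186.57, chr16:66413385-66414871 with 153.26 and chr14:95532469-95533765 with 148.43. In the last, H3K9me3 covered 1119 of 1297 bp at a fold of 3.26.

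Among the 1299 peaks that met H3K9me3 only, the strongest was chr2:91604244-91610023 (272.72), with a low H3K9me3 fold of 2.44 over 428 of 5780 bp. Its H3K9me3 peak had a −log10 q of 1.19. Its centre lay 719067 bp from the longest stretch of chromosome 2 without a region in any list. This site was followed by chr5:3727404-3728421 with a score of 210.06, chr15:79316156-79316850 with 194.3, chr6:39812509-39813680 with 177.44 and chr15:65930724-65932429 with 116.94. In these 4 the H3K9me3 fold was 5.90, 7.53, 4.95 and 4.82, all above the median of 4.35. The 5 named peaks in both SKP2 and both origin lists were all below this median, at 3.84, 2.06, 3.44, 1.77 and 3.26. Of the 10 strongest peaks, only chr16:85596929-85599158 (6.50) and chr2:235987465-235988152 (7.19) were above it.

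Along the chromosomes, the CUL4A-free H3K9me3 peaks were spread widely but unevenly. They made up 12.4% of CDT2 peaks on chromosome 1, from 5.67% on chromosome 19 and 5.92% on chromosome 22 to 16.7% on chromosome 5 and 17.4% on chromosome 4. Their density was 2.07 per Mb on chromosome 5 and 0.252 on chromosome 13, which held 2233 and 235 CDT2 peaks of any class. On chromosome 13 these peaks made up 12.3% of CDT2 peaks, close to the 12.5% over chromosomes 1 to 22. They were found in 1705 of 2894 windows of 1 Mb, in 792 of them as a single peak. The 96 windows with 5 or more held 558 of the peaks (16.1%). All CDT2 peaks were not counted over the same windows, so these counts do not show an unevenness particular to the CUL4A-free H3K9me3 peaks. Within 2 Mb of a chromosome end (the start of its coordinates or the last position in any list) lay 76 of them, 2.20% (1.76 to 2.74%). This compared with 4.75% of all CDT2 peaks and 5.96% of those with both marks. Within 5 Mb of the longest stretch without a region in any list lay 271 (7.83%, 6.98 to 8.77%), against 10.9% of all CDT2 peaks and 14.4% of those with neither mark, a difference from the latter of −6.60 points (−7.76 to −5.39) with the lower value on 18 of 22 chromosomes.

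The window with most of them was chr1:152000001-153000000, with 13 among 58 CDT2 peaks. Their scores ran from 20.67 to 53.4, 8 met a U2OS origin and 2 a HCT116 RepID KO origin. The next were chr11:118000001-119000000 with 9 among 100 CDT2 peaks and chr12:14000001-15000000 with 9 among 20. In the window of chromosome 12, 5 of the 9 met a U2OS origin and 0 of 9 a HCT116 RepID KO origin. In that window 50 U2OS origins and 15 HCT116 RepID KO origins began. Over all CUL4A-free H3K9me3 peaks the shares at these origins were 53.1 and 18.1%.

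The nearest CDT2 peak to a CUL4A-free H3K9me3 peak was a median of 26473.5 bp away, against 14825 bp for peaks with both marks. In 34.1% of cases it was a peak with neither mark, in 25.7% one with both, in 21.3% one with CUL4A alone and in 18.9% another CUL4A-free H3K9me3 peak. CUL4A-free H3K9me3 peaks made up 12.5% of all CDT2 peaks on chromosomes 1 to 22, and they were the nearest peak in 14.9% of cases for peaks with neither mark, 9.82% for peaks with both and 9.06% for peaks with CUL4A alone.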

How the data were processed

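The authors called enriched regions from their reads against controls, and the submitters' processing notes name hg19, MACS and SICER. Aligner settings are not given in the sources used here. CUL4A regions and origins were called by SICER (window 200 bp, gap 600 bp, false discovery rate 1e-05 for CUL4A and 0.01 for origins). Each deposited region carries a score of the authors, whose scale is not stated. The methods name MACS2 broad peaks for CDT2 and SICER for histone marks, whereas the deposited CDT2 list has the form of an older MACS and the histone lists that of MACS2 broad peaks, where fold over control is the authors' ratio and significance is deposited as −log10 p and −log10 q. The deposited SKP2 lists hold 3 further columns of other values, not used here.

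Regions were associated when they shared at least 1 bp. Shares were given Wilson, and differences Newcombe, 95% confidence intervals. Coverage was taken in bins of 100 bp. The overlap functions were tested on simulated data: of 20000 answers, 0 departed from base-by-base counting. Named sites are the 10 highest by CDT2 score on chromosomes 1 to 22 other than 8, the 5 highest in both SKP2 and both origin lists, the 5 highest in no other list, the 3 fullest windows of 1 Mb, and those nearest to the rule's limits. Gene lists and sequence features were not analysed, since no hg19 annotation or genome was used. The class of peaks, the lists and the alternatives were chosen with earlier results of these data known. Alternatives were a 50% overlap, a CUL4A distance of 1 kb, a CDT2 score of at least 50, a −log10 q of at least 2, 1 kb around centres, chromosome X and the stronger 50% of each partner list. Python 3.11.15, NumPy 2.4.6, pandas 2.3.3 and matplotlib 3.10.9 were used.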

Additional observations from a re-analysis of the deposited data

Results flagged for a closer look

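The difference between CUL4A-free CDT2 peaks with H3K9me3 and those with neither mark had opposite signs for the origins of the 2 cell lines. It was 9.53 percentage points for U2OS origins and −5.69 points for HCT116 RepID KO origins. Each list comes from 1 sample, and the difference between the cell lines was not tested. H3K9me3, CUL4A and CDT2 were measured in U2OS only, and the number of origins on chromosomes 1 to 22 differed (126050 in U2OS and 83872 in HCT116 RepID KO cells).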

How the results depend on the processing

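No paired analysis was possible because each list is 1 sample, and for the same reason no replicate was left out. Of 70 recomputed differences from peaks with neither or with both marks, 57 kept their sign and whether their interval included 0, among them those in both origin lists under all 7 alternatives. With at least 50% of the peak covered, the shares of CUL4A-free H3K9me3 peaks were 51.4% at U2OS origins, 3.02% at H3K4me3, 3.23% at SKP2 of WT cells, 2.97% at SKP2 of RepID KO cells and 14.8% at HCT116 RepID KO origins, and the SKP2 differences from peaks with neither mark were −1.01 points (WT, an interval without 0) and −0.00142 points (RepID KO, a reversed sign). The H3K4me3 difference from peaks with neither, was −0.00361 points there and −0.00597 points in 1 kb around centres. With a CDT2 score of at least 50, 252 peaks were left, with shares of 61.1, 6.75, 33.7, 20.2 and 50.4% in the same order. There the SKP2 differences from peaks with both marks were 4.58 points (WT, a reversed sign) and −3.67 points (RepID KO), and those from peaks with neither were 4.50 points (WT, a reversed sign) and 2.63 points (RepID KO), all 4 with intervals including 0. With the stronger 50% of each partner list the shares were 31.9, 1.39, 4.94, 4.13 and 10.4%, and the differences from peaks with neither were −0.577 points for H3K4me3 (a reversed sign, an interval without 0) and 0.592 points for SKP2 of RepID KO cells. The latter was 0.829 points without CUL4A within 1 kb, 0.816 points at a −log10 q of at least 2 and 0.885 points in 1 kb around centres, each with an interval including 0. The cause of these changes was not tested. Library depth is unknown, and neither a region missing from a list nor a difference between cell lines can be set against replicate error.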
